A study of Mus musculus with 4 samples.

Results

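Claudins are the membrane proteins that build tight junctions, the belt-like contacts that seal the space between neighbouring epithelial or endothelial cells. Each claudin crosses the membrane several times, and its extracellular loops pair with claudins of the next cell. Some claudins tighten the seal and others form pores for ions or water, so the set a tissue expresses helps to determine what leaks between its cells. In the lung, Cldn3, Cldn4 and Cldn18 are the best known claudins of the alveolar epithelium and Cldn5 is the main claudin of endothelium. Described here are 10 claudin genes: Cldn1, Cldn2, Cldn3, Cldn4, Cldn5, Cldn6, Cldn7, Cldn8, Cldn10 and Cldn18. They were chosen by name, as every probe set whose only annotated gene is one of them, and they make up 18 of the 22690 probe sets on the array and 10 of the 12393 genes with a probe set of their own.

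The signals come from 4 Affymetrix arrays of total RNA from whole mouse lung at embryonic day 18, 2 labelled wild type and 2 labelled sftpc-nmyc. The Sftpc-Nmyc embryos carried mouse Nmyc1 (now Mycn, a growth-promoting transcription factor) fused to the fluorescent protein EGFP, under 3.7 kb of the human SFTPC promoter, which drives expression in lung epithelium. They were founders from pronuclear injection into eggs of an F2 between C57BL/6J and DBA/2J, 4 in all, so integration sites may differ between embryos. The titles give embryonic day 18 for all 4 arrays, while the design text says that the Sftpc-Nmyc embryos were collected at E18.5. It gives neither a strain nor a finer age for the wild type, so a difference in age or strain cannot be told apart from genotype. It calls the duplicates biological replicates, and how many embryos went into each array is not given.

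A Mycn probe set, 1425922_a_at, had normalized signals of 32.1 and 31.9 in wild type and 450 and 358 in Sftpc-Nmyc, higher in the arrays labelled sftpc-nmyc, while 1417155_at of the same gene went from 76.5 and 62.7 to 27.4 and 27.4. The remaining Mycn probe set, 1425923_at, had 54.5 and 18.6 in wild type and 64.4 and 44.4 in Sftpc-Nmyc, with the groups overlapping. Markers of epithelium (Krt8, Krt19, Spint2), alveolar cells (Sftpc, Sftpb, Ager) and endothelium (Cdh5, Kdr, Ramp2) were all bright in wild type, as the tissue label implies. Xist was higher in both wild-type arrays and several Y-linked probe sets were higher in both Sftpc-Nmyc arrays, so genotype and sex of the pooled or single embryos cannot be told apart. In whole lung, fewer cells of a type and less RNA per cell cannot be told apart either. All signals below are quantile normalized intensities in arbitrary units, and all fold changes are Sftpc-Nmyc minus wild type on a log2(value + 5) scale, where changes of dim genes come out too small.

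Of the 10 claudins, 8 were bright enough to enter the fit over 8675 genes, and 2 (Cldn2 and Cldn8) lay below its filter. Among the 8, Cldn6, Cldn7 and Cldn10 were higher and Cldn5 was lower in Sftpc-Nmyc lungs, while Cldn1, Cldn3, Cldn4 and Cldn18 did not pass (limma, Benjamini-Hochberg adjusted p under 0.05). Of all genes tested, 30.4% were called, 14.7% higher and 15.7% lower. Counts of called genes in the gene lists below, from the same fit, are to be read against these shares. The groups did not overlap for 6 of the 8, against 68.1% of all genes tested. The median log2 fold change of the 8 was 0.14, beside -0.02 over all genes tested. The claudins therefore moved in both directions, from -1.77 for Cldn5 to 2.78 for Cldn6.

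**Figure D1:**
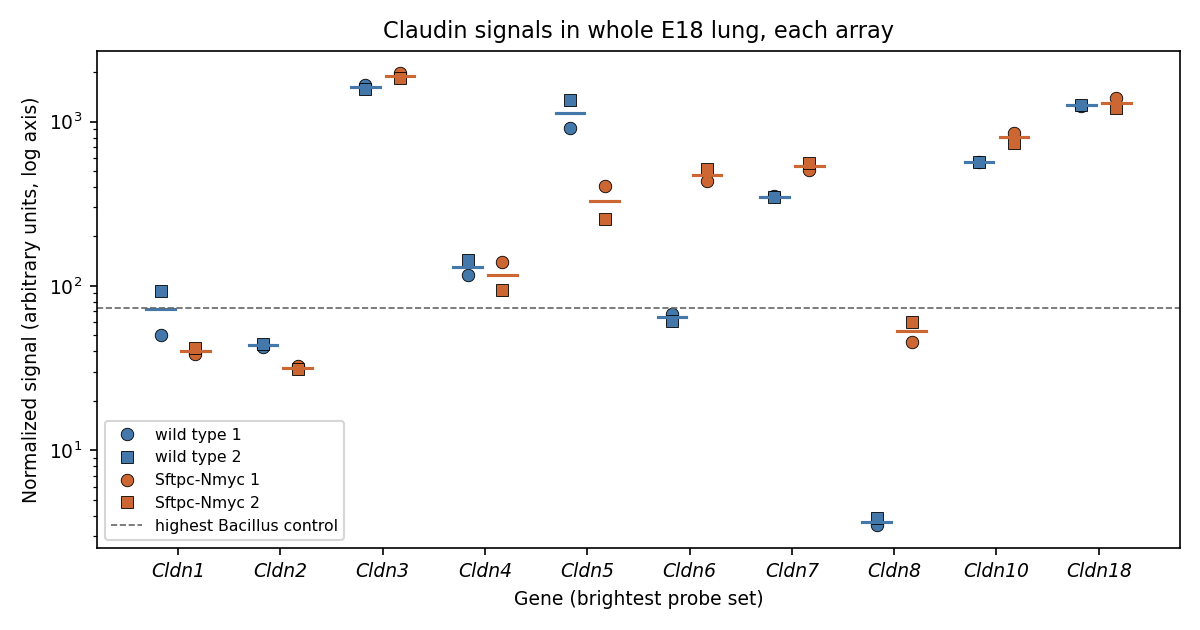
Normalized signal (arbitrary units, log axis) of the brightest probe set of each of the 10 claudins on the 4 arrays. Circles are replicate 1 and squares replicate 2, short lines are group means, and the dashed line marks the brightest Bacillus control, 73.4. The Cldn6 points of the groups lie far apart (61.3 and 67.7 against 435 and 514), those of Cldn5 lie apart in the other direction, and those of Cldn18 overlap. Heights are not comparable between genes.

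Cldn6 is a claudin of embryonic epithelia that is mostly silent in adult tissue. Its single probe set had signals of 67.7 and 61.3 in wild type and 435 and 514 in Sftpc-Nmyc. Both wild-type values lay below 73.4, the brightest value of 27 probe sets for Bacillus controls and the only guide to background here, and both Sftpc-Nmyc values lay well above it. Group means were 64.5 ± 4.52 and 475 ± 55.7 (SD, n = 2). The log2 fold change was 2.78 ± 0.17 (SE; limma adjusted p = 9.8e-05). Since the wild-type values lay below the guide, this is the log2 ratio of the measured signals with 5 added, background included. It was 2.19 when 50 was added in place of 5. It held without any one array, between 2.67 and 2.90, and its 95% confidence interval ran from 2.40 to 3.17.

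Cldn8, a claudin best known from the kidney, where it limits passage of cations, was also higher in Sftpc-Nmyc, at a much dimmer level. Its signals were 3.49 and 3.87 in wild type and 45.5 and 60.3 in Sftpc-Nmyc. The groups were far apart, yet all 4 values were below the Bacillus guide, and the gene was too dim for the gene fit. In a fit over all 20380 probe sets with a single gene, where 12.9% were called, its log2 fold change was 2.73 ± 0.32 (SE; limma adjusted p = 0.012). The wild-type values are near the floor of 1 and the offset of 5, so the size of this change is uncertain: over the settings tried it ran from 0.93 (50 added) to 3.51 (1 added). Without any one array it ran from 2.54 to 2.91. Leave-one-out calls in this fit cannot bear on Cldn8, since no probe set of any gene passed there.

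Cldn7, a claudin along the sides of epithelial cells that binds the adhesion molecule Epcam, had signals of 354 and 346 in wild type and 511 and 558 in Sftpc-Nmyc. The 2 groups were each tight and did not overlap. The log2 fold change was 0.60 ± 0.14 (SE; limma adjusted p = 0.013), a 1.52-fold rise. The direction held without any one array, from 0.54 to 0.67, but the gene no longer passed when wild-type replicate 1 was dropped (limma adjusted p = 0.061), nor when the same was done with wild-type replicate 2 (0.075) or Sftpc-Nmyc replicate 2 (0.073).

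Cldn10, which forms ion-selective pores and in mouse lung is known from club cells of the airway, had signals of 564 and 566 in wild type and 856 and 746 in Sftpc-Nmyc. Both Sftpc-Nmyc arrays were above both wild-type arrays. The log2 fold change was 0.50 ± 0.13 (SE; limma adjusted p = 0.025). It was not called without wild-type replicate 1 (limma adjusted p = 0.10), wild-type replicate 2 (0.11) or Sftpc-Nmyc replicate 1 (0.12), nor without the trend in the variance model (0.067). Its probe set, 1426147_s_at, carries the suffix that Affymetrix gives to probe sets shared by several transcripts, and which Cldn10 isoforms it reads was not determined here. Beside it, 6 of 9 tested club cell genes were lower and 0 higher, with a median of -0.94. Over the 10 club cell genes on the array, the summed signal was 26179 to 26923 in wild type and 10985 to 15723 in Sftpc-Nmyc, led by Scgb3a2, Scgb1a1 and Cbr2. The list shares Sftpd with the type II list. The part of club cells in the Cldn10 result was not tested.

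Cldn5 was the claudin that fell. Its signals were 911 and 1345 in wild type and 406 and 255 in Sftpc-Nmyc. Replicates were spread, with an SD of 306 in wild type and 107 in Sftpc-Nmyc, but the groups did not overlap. The log2 fold change was -1.77 ± 0.25 (SE; limma adjusted p = 0.0022), a 3.40-fold lower signal, and ranged from -2.10 to -1.44 without any one array, with the call kept each time. All 13 tested endothelial genes also fell, by a median of 1.27 on the log2 scale. Among them Cdh5, VE-cadherin of the adherens junction, fell by 1.59, and the receptor Kdr fell by 1.16. The summed endothelial signal was 9116 to 9499 in wild type and 3718 to 3843 in Sftpc-Nmyc, with no marker at 0. The endothelial genes ranged from -1.77 to -0.85, so Cldn5 lay at the low end of that list. Their median of -1.27 lies near the upper end of the 95% confidence interval of Cldn5, -2.35 to -1.19. The part of endothelial content in the Cldn5 result was not tested.

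Cldn18, whose lung form is a defining claudin of alveolar cells, gave no single answer. Its brightest probe set, 1449428_at, had signals of 1252 and 1260 in wild type and 1392 and 1214 in Sftpc-Nmyc. The Sftpc-Nmyc arrays lay on either side of wild type, and the log2 fold change was 0.05 ± 0.12 (SE; limma adjusted p = 0.79), with a 95% confidence interval from -0.23 to 0.33. The other probe set, 1425445_a_at, had 1172 and 1392 in wild type and 922 and 506 in Sftpc-Nmyc. Here both Sftpc-Nmyc arrays were lower, replicate 2 most, and the log2 fold change was -0.90 ± 0.29 (SE), which did not pass over all probe sets (limma adjusted p = 0.11). The mean of both gave -0.42 (limma adjusted p = 0.11).

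The difference between these 2 probe sets was tested after it had been seen, in a limma fit of the within-array difference between the brightest probe sets of 3114 genes. The brighter Cldn18 probe set exceeded the other by 0.09 and -0.14 (log2) in wild type and by 0.59 and 1.25 in Sftpc-Nmyc. The change in that difference was 0.95 ± 0.27 (SE; 95% confidence interval 0.31 to 1.59; limma adjusted p = 0.20), and 0.321% of genes passed in this fit. The difference between the Cldn18 probe sets therefore did not pass, and whether they read different Cldn18 transcripts was not determined here. Alveolar marker genes stood lower beside both probe sets. Of 9 tested alveolar type I genes 8 were lower, with a median of -1.59, and of 11 type II genes 10 were lower, with a median of -2.85. Their summed signals were 16151 to 16881 and 40653 to 47204 in wild type, and 6356 to 8420 and 8748 to 10923 in Sftpc-Nmyc. Hopx, Cav1 and Ager led the type I signal and Sftpc, Sftpb and Lpcat1 the type II signal. Their part in the Cldn18 values was not tested.

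**Figure D2:**
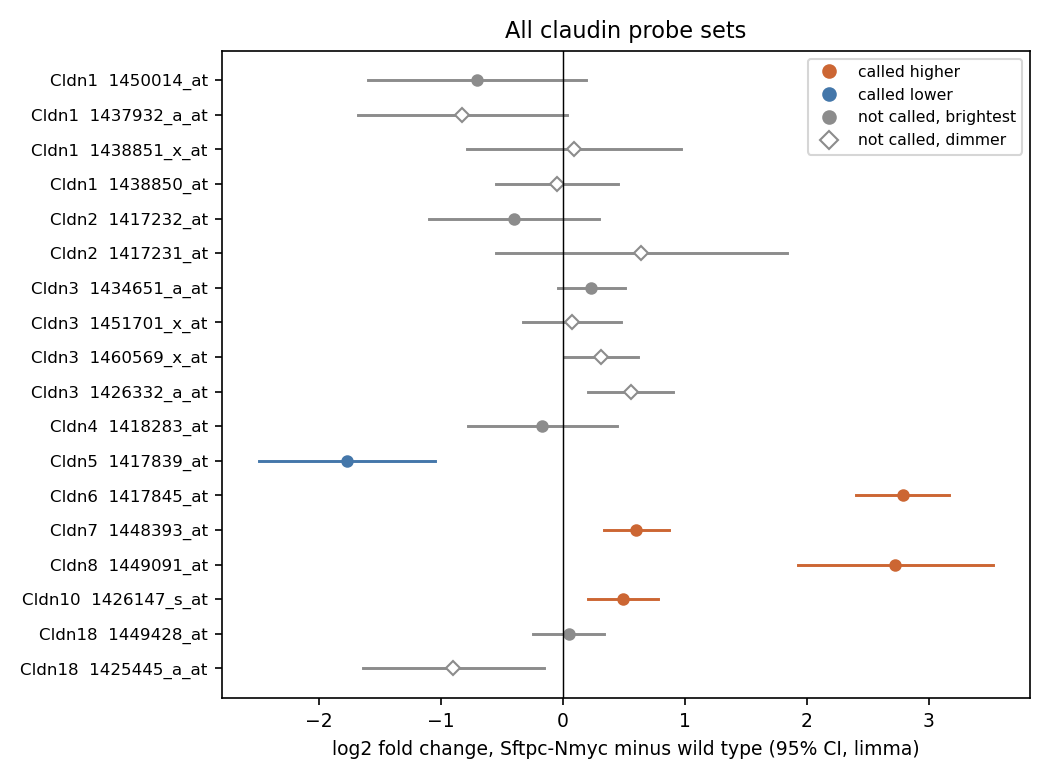
Log2 fold change, Sftpc-Nmyc minus wild type, of all 18 claudin probe sets with its 95% confidence interval, in the fit over all probe sets. Orange marks called higher, blue called lower, grey not called, and open diamonds the dimmer probe sets of a gene. The probe sets of Cldn3 all lie right of 0, from 0.08 to 0.56, and those of Cldn18 lie at 0.05 and -0.90.

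Cldn3, an abundant sealing claudin of alveolar type II and airway cells, was read by 4 probe sets, all bright. The brightest, 1434651_a_at, had 1659 and 1577 in wild type and 1966 and 1841 in Sftpc-Nmyc. These groups did not overlap, but the log2 fold change of 0.23 ± 0.11 did not pass (SE; limma adjusted p = 0.14). The dimmest, 1426332_a_at, had 427 and 517 in wild type and 737 and 652 in Sftpc-Nmyc, a log2 fold change of 0.56 ± 0.14 (SE; limma adjusted p = 0.062 over all probe sets). It passed when arrays were only shifted to a common median (0.65, limma adjusted p = 0.043). The other 2, 1460569_x_at at 0.31 and 1451701_x_at at 0.08, carry a suffix for probes that can cross-hybridize and did not pass. All 4 estimates of Cldn3 were above 0, which is no test since they read the same RNA.

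Cldn4, its neighbour in the genome and a claudin known to rise in injured alveolar epithelium, had signals of 116 and 143 in wild type and 139 and 94.1 in Sftpc-Nmyc. The groups overlapped, and the log2 fold change was -0.17 ± 0.23 (SE; limma adjusted p = 0.62), with a 95% confidence interval from -0.69 to 0.36. The arrays thus leave room for a change of either sign in Cldn4.

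The remaining members were dim. Cldn1, a sealing claudin best known from skin, had 50.4 and 93.7 in wild type and 38.8 and 42.1 in Sftpc-Nmyc at its brightest probe set, where only wild-type replicate 2 was above the Bacillus guide. Its log2 fold change of -0.70 ± 0.32 did not pass (SE; limma adjusted p = 0.13) and hung on the wild-type arrays: it was -1.12 and called without wild-type replicate 1 (limma adjusted p = 0.045), and -0.29 without wild-type replicate 2 (0.56). Its other 3 probe sets were below the guide on every array and none passed. Cldn2, a pore-forming claudin of leaky epithelia that lies on the X chromosome, had 42.7 and 44.1 in wild type and 32.4 and 31.1 in Sftpc-Nmyc at 1417232_at, and 9.50 and 24.7 against 34.6 and 21.5 at 1417231_at. These probe sets pointed in opposite directions, -0.40 ± 0.27 and 0.64 ± 0.47 (SE), both below the guide on every array, and neither passed (limma adjusted p = 0.41 and 0.44).

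Over all 18 probe sets, 4 were called higher (those of Cldn6, Cldn7, Cldn8 and Cldn10) and 1 lower (Cldn5). In that fit 6.79% of probe sets were called higher and 6.16% lower. The groups did not overlap for 12 of the 18, against 57.7% of all probe sets. On all 4 arrays 10 of the 18 were above the Bacillus guide, and on none were 6.

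Another 9 claudins on the array had 1 probe set each: Cldn9, Cldn11, Cldn13, Cldn14, Cldn15, Cldn16, Cldn19, Cldn23 and Cldn34c1. None was called (0 of 9 with limma, 1 at an unadjusted p under 0.05), and 8 were below the Bacillus guide on every array. Cldn9, which lies next to Cldn6 on chromosome 17, had 8.31 and 11.6 in wild type and 11.9 and 43.9 in Sftpc-Nmyc, so only Sftpc-Nmyc replicate 2 stood apart (log2 fold change 0.95 ± 0.57, SE; limma adjusted p = 0.34). Cldn13, near Cldn3 and Cldn4 on chromosome 5, had 6.16 and 2.97 against 34.4 and 18.01 (1.68 ± 0.40, SE; limma adjusted p = 0.055). Cldn15, the only one above the guide on any array, had 78.1 and 73.8 against 48.4 and 56.0 (-0.50 ± 0.23, SE; limma adjusted p = 0.22).

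The starts of these genes were searched for motifs of factors that bear on this comparison. RefSeq promoter windows (assembly GRCm38.p6, 250 bases before the annotated start) matched 9 of the 10 members with 12 windows, all but Cldn8. The E-box CACGTG, the preferred letters of MYC family proteins, was in 0 of the 12 windows and in 6.02% of all 32851 windows. CACCTG, the E-box letters that the repressors Snai1, Snai2, Zeb1 and Zeb2 prefer, was in 3 of the 12, those of Cldn4, Cldn6 and Cldn7 (1 of its 2 windows), and in 17.2% of all. AACCNGTT, the letters of grainyhead factors, was in the Cldn5 window alone, against 1.79% of all. All motifs were searched on both strands, the last 2 after the values of those factors were seen, and no matches overlapped. Printed are the windows of the largest rise (Cldn6), of Cldn7 with its 2 matches, and of the largest fall (Cldn5). Capitals mark CACCTG or its reverse complement in the first 2 sequences and the grainyhead match in the third.
Cldn6, chr17:23679115-23679364, plus strand: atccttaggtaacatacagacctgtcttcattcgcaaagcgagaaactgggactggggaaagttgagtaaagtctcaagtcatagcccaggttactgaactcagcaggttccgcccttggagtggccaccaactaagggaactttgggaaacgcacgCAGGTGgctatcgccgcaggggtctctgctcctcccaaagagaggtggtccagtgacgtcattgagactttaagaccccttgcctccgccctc
Cldn7, chr11:69965171-69965420, plus strand: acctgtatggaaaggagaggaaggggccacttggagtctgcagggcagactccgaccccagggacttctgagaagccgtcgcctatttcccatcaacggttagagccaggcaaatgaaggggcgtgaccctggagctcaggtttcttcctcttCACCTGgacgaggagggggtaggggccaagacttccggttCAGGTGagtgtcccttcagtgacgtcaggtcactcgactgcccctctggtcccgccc
Cldn5, chr16:18776597-18776846, plus strand: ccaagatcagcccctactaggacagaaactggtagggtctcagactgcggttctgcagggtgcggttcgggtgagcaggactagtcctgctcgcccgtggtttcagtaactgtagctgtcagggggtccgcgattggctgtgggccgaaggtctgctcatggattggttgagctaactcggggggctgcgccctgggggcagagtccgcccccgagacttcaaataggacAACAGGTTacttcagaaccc

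The rest of the junction moved in both directions too. Of 53 genes listed by role, 40 were tested, and 7 were higher and 10 lower, 42.5% against 30.4% of all genes tested. Their median log2 fold change was -0.14. The call held without any one array for 7 of these 17 (Epcam, Esam, Grhl2, Lsr, Prkci, Ybx3 and Zeb1) and was lost at least once for the other 10. The other transmembrane proteins had 1 of 10 higher and 3 lower. Lsr, which recruits proteins to the corners where 3 cells meet, had 161 and 214 in wild type and 362 and 391 in Sftpc-Nmyc, a rise of 0.999 ± 0.18 (SE; limma adjusted p = 0.0051). Esam, a junction molecule of endothelium, fell by 1.82 ± 0.13, from 1159 and 1307 to 343 and 345. F11r, the junctional adhesion molecule of epithelium and endothelium, fell by 0.65 ± 0.12, though with all its probe sets averaged the change was -0.36 (limma adjusted p = 0.17). The dimmer F11r probe set in that average, 1436374_x_at, was below the Bacillus guide on every array, as was the dimmer one of Jam3, 1423504_at. Jam3 fell by 0.65 ± 0.21, a call that no leave-one-out fit kept, and with its 2 probe sets averaged the change was -0.14 (limma adjusted p = 0.76). Ocln, occludin, the first known tight junction membrane protein, had 331 and 363 against 337 and 224 and did not pass, at -0.33 ± 0.20 (SE; limma adjusted p = 0.26). Jam2 and Cxadr did not pass either, at -0.59 and -0.30. A second Jam2 probe set, 1449408_at, slightly dimmer on average and not used in the gene fit, went from 144 and 143 to 66.1 and 61.8 and was called lower over all probe sets (-1.11 ± 0.17, SE; limma adjusted p = 0.021).

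Scaffold proteins under the membrane had 3 of 11 higher and 2 lower. Tjp1, ZO-1, which binds the tails of claudins, had 1327 and 1165 in wild type and 727 and 517 in Sftpc-Nmyc. It fell by 1.01 ± 0.18 (SE; limma adjusted p = 0.0046), with the groups well apart. Its paralogue Tjp3, ZO-3, confined mostly to epithelia, rose by 0.84 ± 0.19, from 68.1 and 63.0 to 121 and 121. Ybx3, a Y-box protein that binds ZO-1 and nucleic acids, rose by 1.19 ± 0.15, from 722 and 555 to 1508 and 1405. A dimmer Ybx3 probe set, 1451012_a_at, rose more, from 154 and 178 to 832 and 721. Its change was 2.19 ± 0.14 over all probe sets (SE; limma adjusted p = 0.0060), so the size of the rise differed between probe sets. Patj, a polarity scaffold, rose by 0.63 ± 0.16 and Amotl2, an angiomotin, fell by 0.74 ± 0.15. The rise of Patj did not pass with its probe sets averaged (0.36, limma adjusted p = 0.12). Cgnl1, Tjap1 and Mpdz did not pass, at -0.24, 0.10 and 0.03.

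Polarity proteins, which place the junction near the apical surface, had 1 of 9 higher and 1 lower, 22.2% against 30.4% of all genes tested. Prkci, the atypical protein kinase C of the Par complex, rose by 1.05 ± 0.13 (SE; limma adjusted p = 0.0012), from 388 and 397 to 822 and 810. A second Prkci probe set, 1448695_at, also above the Bacillus guide on all 4 arrays, rose less. Its change was 0.52 ± 0.12 over all probe sets (SE; limma adjusted p = 0.048). Pard6b, the partner of Prkci, fell by 1.51 ± 0.31 (limma adjusted p = 0.0087), from 185 and 288 to 105 and 57.5, and was not called without wild-type replicate 2 (limma adjusted p = 0.080). Pard6g, Lin7c and Crb3 did not pass, at -0.09, 0.14 and -0.21. Dimmer Crb3 probe sets, also above the Bacillus guide on all 4 arrays, gave -0.13 (1455115_a_at) and 0.23 (1434851_s_at) and did not pass. The Crb3 probe sets therefore gave no single direction.

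**Figure D3:**
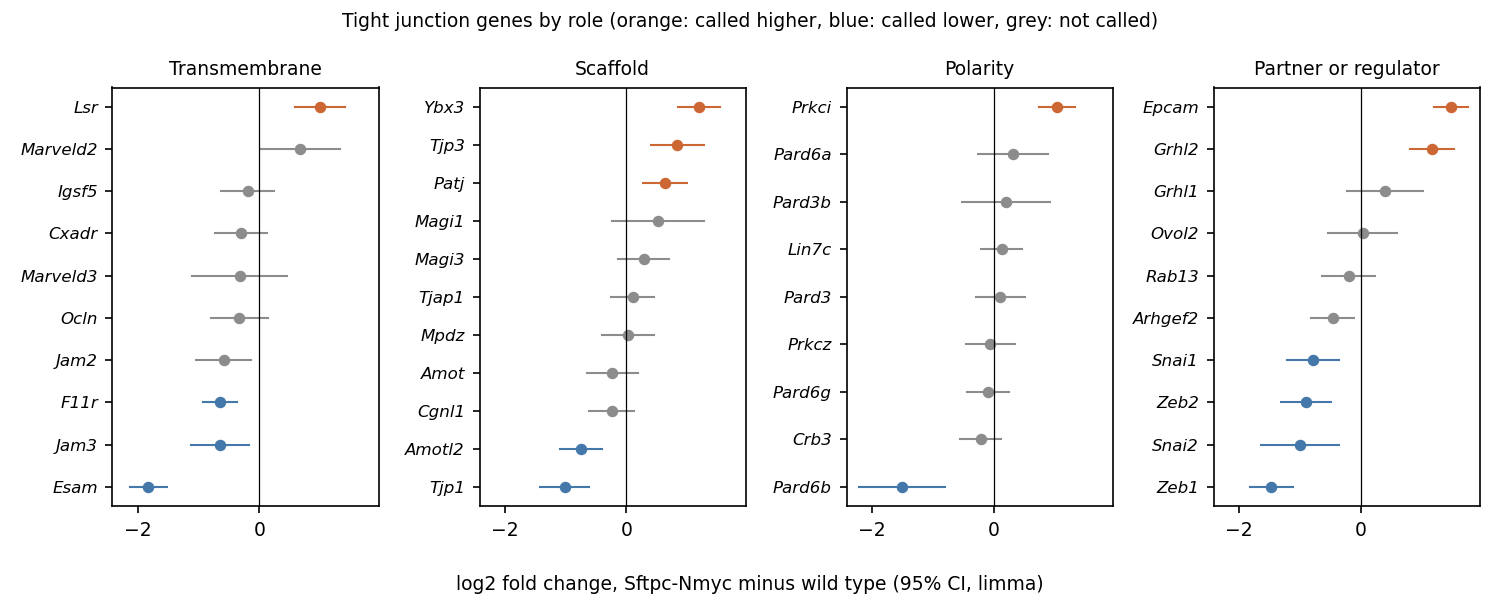
Log2 fold change, Sftpc-Nmyc minus wild type, with 95% confidence interval for the 40 tested tight junction genes in 4 panels by role. Orange marks called higher, blue called lower and grey not called. Each panel holds genes on both sides of 0, from Esam at -1.82 to Epcam at 1.48.

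Partners and regulators of claudins had 2 of 10 higher and 4 lower. Epcam, which holds Cldn7 at the membrane, had 482 and 508 in wild type and 1415 and 1366 in Sftpc-Nmyc, a log2 change of 1.48 ± 0.12 (SE) beside 0.60 ± 0.14 for Cldn7. Grhl2, a grainyhead factor known to activate claudin genes, had 177 and 161 against 413 and 362, a rise of 1.17 ± 0.16 (SE; limma adjusted p = 0.0017). That value is from its brightest probe set alone. A second, 1431877_a_at, also above the Bacillus guide on all 4 arrays, had 113 and 82.2 against 97.9 and 85.4 and a change of -0.07. The other 2 were below the guide on every array, and with all 4 averaged the change was 0.26 (limma adjusted p = 0.44). The 4 tested repressors known to silence claudins and Cdh1 in mesenchymal cells fell. Zeb1 went from 308 and 313 to 106 and 113, a fall of 1.47 ± 0.15 (SE; limma adjusted p = 0.00073), which became -0.41 with a very dim second probe set averaged in (limma adjusted p = 0.30). Snai2 fell by 0.998, Zeb2 fell by 0.90 and Snai1 fell by 0.78, each with a call that ended without at least 1 of the arrays. These repressors are mesenchymal genes, and 6 of 8 tested fibroblast genes were lower with a median of -0.92, among them Col1a2, Col3a1 and Tcf21. The summed fibroblast signal was 15898 to 16606 in wild type and 8369 to 8872 in Sftpc-Nmyc, and its part in the repressor values was not tested. Arhgef2, Rab13 and Ovol2 did not pass, at -0.46, -0.19 and 0.04.

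Set beside epithelial markers, the claudins ran from -1.77 for Cldn5, the main claudin of endothelium, to 2.78 for Cldn6. This range was wider than that of the pan-epithelial list, which also holds Epcam. That list had 7 of 17 higher and 1 lower, a median of 0.36 and a range from -0.62 to 1.48, with a summed signal of 10357 to 11055 in wild type and 13041 to 13275 in Sftpc-Nmyc. The changes of Cldn7 (0.60) and Cldn10 (0.50) lay within that range, and the confidence interval of each included the median. Cldn6, at 2.78 with wild-type values below the Bacillus guide, lay outside that range, a comparison that was not itself tested. Cldn3, Cldn4 and Cldn18, the alveolar claudins, lay between -0.17 and 0.23 at their brightest probe sets. The other Cldn18 probe set, 1425445_a_at, lay at -0.90. How these values relate to the marker medians was not tested. Ciliated genes had 1 of 5 higher and a median of 0.14, and distal tip progenitor genes 3 of 7 lower and a median of -0.48. Among all genes tested, 14.7% were called higher and 15.7% lower.

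**Figure D4:**
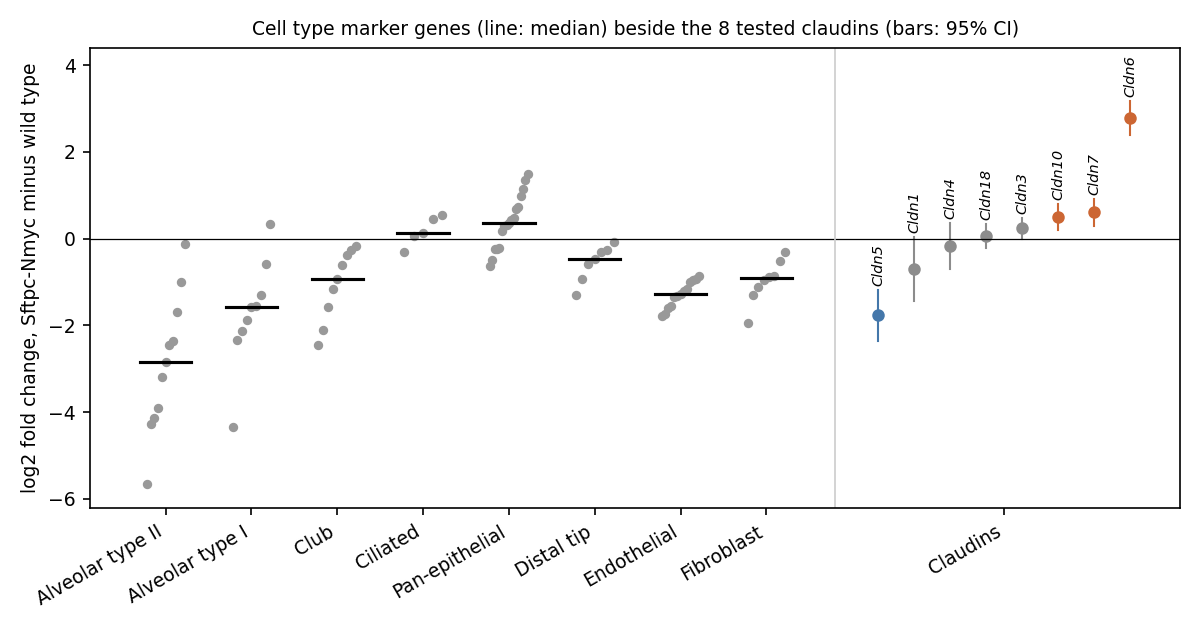
Log2 fold change, Sftpc-Nmyc minus wild type, of the tested genes of 8 cell type marker lists (grey points, black line at the median) and of the 8 tested claudins (coloured by call, bars are 95% confidence intervals). The type II median is -2.85 and the endothelial median -1.27. Cldn5 lies at the low end of the endothelial genes, and Cldn6, below the Bacillus guide in wild type, is at 2.78.

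Markers of tissues that could have been carried along were also read. All 8 gut epithelial and all 4 thymus genes on the array were below the Bacillus guide on every array. Of 6 stratified epithelium genes 1 was tested, Krt15, which was higher (1.13). Mesothelial genes had 2 of 3 lower (Msln and Upk3b), and all 4 tested heart genes were lower, with a median of -2.43. Over the 5 heart genes on the array, the summed signal was 1106 to 1642 in wild type against 201 to 313 in Sftpc-Nmyc. Their part in the claudin values was not tested.

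The genes whose pattern over the 4 arrays was closest to the largest rise and the largest fall were found by Euclidean distance between log2 values centred on each gene's mean. For Cldn6 these were Uhrf1, Dut and Acy1, at distances of 0.31, 0.32 and 0.33. For Cldn5 they were C1qb, Lyve1 and Tinagl1, at 0.15, 0.17 and 0.18. By construction, such likeness over 4 arrays mostly reflects the size of the group difference.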

How the data were processed

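The deposited values are intensities of probe sets on a linear scale, from biotin-labelled total RNA per the labels' protocols; software and scaling: not given in the sources used here. Each array has the same mean, 150.05, once the highest and lowest 2% of values are left out. Values under 1 were set to 1, 5 was added, and log2 values were quantile normalized across the 4 arrays without control probe sets. Names come from the platform annotation (20380 probe sets with 1 symbol). The probe set with the highest mean stood for each gene, and the dimmest 30% of genes were dropped, which left 8675. A second fit covered all 20380 probe sets. The fits used limma 3.58.1 (R 4.3.3; variance trend, group as the only term), with Benjamini-Hochberg adjustment over everything tested and a threshold of 0.05. Errors are limma standard errors unless marked SD. The code was tested on simulated data. The number of arrays limits precision.

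The members and gene lists were chosen with earlier results of these data known. Named genes were all claudins on the array, junction genes past the threshold with up to 3 bright ones per list that were not, up to 3 bright markers per list, and the 3 nearest patterns of the largest rise and fall. Alternatives were other offsets, normalizations, filters, probe set rules and variance models, a replicate block, and leaving out each array. Protein sequences were not used here.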

Additional observations from a re-analysis of the deposited data

How the results depend on the processing

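The precision of 2 arrays per group is the main limit. Leaving out 1 array gave 2 to 3 claudins called in place of 4, 9 to 14 junction genes in place of 17, and 1396 to 1917 genes in place of 2636. The lowest of each came without wild-type replicate 2. In the fit over all probe sets, leaving out any array gave 0 claudin probe sets called in place of 5, as it gave 0 of all 20380 with limma, while 6 to 8 of the 18 had an unadjusted p under 0.05. That fit called 2 claudin probe sets without the variance trend and 3 with the replicate number as a block. In the gene fit the replicate block kept the 4 claudin calls and gave 2218 genes. Same-numbered arrays did not deviate together (r = -0.04 over 8675 genes), and nothing says that the numbers pair the arrays. Among single claudins in the gene fit, 102 alternative values gave the same call, 7 lost the call (Cldn7 and Cldn10) and 1 gained it (Cldn1). No called claudin or junction gene changed sign under any alternative run. The Bacillus guide of 73.4 is the highest single control value and lies above the median deposited value of each array (65.45 to 70.8). On this guide alone, a signal below it is neither shown to be background nor shown to lie above it.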
